A study of Mus musculus with 4 samples.

Results

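The genes described here are 10 genes of neutrophil granules and neutrophil chemotaxis, *S100a8*, *S100a9*, *Ngp*, *Camp*, *Mmp8*, *Mmp9*, *Retnlg*, *Cxcr2*, *Mpo*, and *Elane*, out of 24421 genes in the deposited table. They were chosen by name, with values of these libraries known, because *S100a8*, *S100a9*, and *Ngp* are among the genes that are lowered most in both reporter-positive libraries. All 10 genes were found by symbol. The 4 libraries are RNA-seq of cells sorted by FACS from the main olfactory epithelium (MOE) of C57BL/6 transgenic mice, with 1 library per group. In the TAAR enhancer 1-GFP line, the enhancer between *Taar1* and *Taar2* drives GFP from the mouse Hsp68 minimal promoter, and GFP-positive and GFP-negative cells were collected. In the TAAR enhancer 2-tdTomato line, the enhancer between *Taar6* and *Taar7a* drives tdTomato, a red fluorescent protein, from the same promoter, and tdTomato-positive and tdTomato-negative cells were collected. Each line descends from 1 founder with a PiggyBac insertion, and no library comes from mice without a transgene. The sample labels call the mice adult, whereas the study's Reporting Summary gives mixed C57BL/6J and 129 backgrounds and ages of 14 days for the GFP line and 14 to 21 days for the tdTomato line. The number of mice behind each library is not given in the sources used here.

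Neutrophils are short-lived phagocytes that are made in the bone marrow and enter tissues from the blood. Their granules are filled in order as the cells mature. Azurophil granules, with myeloperoxidase and elastase, come first, specific granules, with cathelicidin and lactoferrin, come next, and gelatinase granules come last. Transcripts of the early granule proteins are typical of precursors, while the chemokine receptor CXCR2 marks cells that are ready to leave the marrow and follow chemokines into tissue.

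Values are TPM (transcripts per 1000000), which sum to 1000000 in each library and are scaled by transcript length, so that levels of different genes can be set side by side. How many reads each value rests on is unknown. With 1 library per group there is no replicate error and no test, and a difference describes these libraries. In sorted bulk RNA, fewer cells of a type and less RNA per cell cannot be told apart. The labelled tissue was checked with 10 genes of mature olfactory sensory neurons (OSNs), which summed to 27437 and 3018 TPM in the negative and positive cells of the GFP line and 28120 and 12535 TPM in those of the tdTomato line. The 10 genes with the highest TPM held 31.5% of the GFP-positive library, against 5.72% to 9.44% of the others. The median log2 difference of all genes was -0.74 in the GFP line and -0.19 in the tdTomato line. Of all genes called at 4-fold in the GFP line, 69.4% were lower in GFP-positive cells, a share that was 45.7% with median-ratio scaling and 56.1% when the genes with the highest TPM were removed before rescaling. A value of 0 needs care, because *Hba-a1*, *Hba-a2*, *Hbb-bs*, and *Hbb-bt*, the adult hemoglobin genes, were listed at 0 in all 4 libraries while *Alas2*, an erythroid enzyme gene, was at 63.7 TPM in GFP-negative cells. Genes at 0 are therefore said to be listed at 0.

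To show the starts of the 3 most abundant members of reporter-negative cells and of the member that was clearly higher in tdTomato-negative than in GFP-negative cells (*Cxcr2*), the 250 bases before the RefSeq start (GRCm38.p6) are given for *S100a8* (chr3:90668821-90669070, plus strand), *S100a9* (chr3:90695722-90695971, minus strand), *Ngp* (chr9:110419558-110419807, plus strand), and *Cxcr2* (chr1:74153744-74153993, plus strand), each 5′ to 3′ on the strand of its gene. Capitals mark matches to TTGCNNAA, a form of the C/EBP site, and to GGAAGT, a form of the PU.1 site, both searched on both strands, and to TATAAA on the gene strand. C/EBP and PU.1 factors are known regulators of granulocyte genes. No marked matches overlap.
S100a8: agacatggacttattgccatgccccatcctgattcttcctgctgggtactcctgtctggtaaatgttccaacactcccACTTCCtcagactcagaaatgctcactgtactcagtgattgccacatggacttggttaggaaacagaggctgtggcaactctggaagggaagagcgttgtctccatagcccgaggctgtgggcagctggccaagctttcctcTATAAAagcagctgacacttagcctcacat
S100a9: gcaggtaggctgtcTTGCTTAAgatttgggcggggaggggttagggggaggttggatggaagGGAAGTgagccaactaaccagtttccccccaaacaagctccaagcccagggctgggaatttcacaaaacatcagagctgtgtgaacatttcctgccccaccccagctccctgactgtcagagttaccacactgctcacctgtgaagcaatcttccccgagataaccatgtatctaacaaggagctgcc
Ngp: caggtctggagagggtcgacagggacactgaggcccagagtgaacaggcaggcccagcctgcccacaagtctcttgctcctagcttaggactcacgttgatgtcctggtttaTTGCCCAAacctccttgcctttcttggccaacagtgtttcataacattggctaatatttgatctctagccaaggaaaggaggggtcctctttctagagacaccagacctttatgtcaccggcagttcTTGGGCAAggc
Cxcr2: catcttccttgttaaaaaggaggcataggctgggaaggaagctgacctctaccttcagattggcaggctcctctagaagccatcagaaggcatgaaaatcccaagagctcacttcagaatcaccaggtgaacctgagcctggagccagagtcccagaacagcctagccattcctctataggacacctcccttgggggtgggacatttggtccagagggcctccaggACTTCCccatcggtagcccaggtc

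The promoter table holds 9 of the 10 members, and *Mmp9* has no entry. TTGCNNAA was found in 4 of these 9 windows (*S100a9*, *Ngp*, *Mmp8*, and *Retnlg*), compared with 9.56% of all 32851 windows of this length. GGAAGT was found in 6 of 9 (*S100a8*, *S100a9*, *Mmp8*, *Cxcr2*, *Mpo*, and *Elane*), compared with 19.7% of all windows. TATAAA was found in *S100a8*, from 30 to 25 bases before its start, and in 7.59% of all windows. *Ngp* has 2 matches to TTGCNNAA, from 138 to 131 and from 11 to 4 bases before its start, and *Camp* has no match to any of the 3 motifs. These are matches of letters, not measured binding sites. Bases before the start are counted from the RefSeq start, which is not always the GENCODE M21 start. The windows of *S100a8*, *Ngp*, *Camp*, *Cxcr2*, *Mpo*, and *Elane* reach into the gene as GENCODE M21 places it, at the positions given below.

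*S100a8* and *S100a9* encode the subunits of calprotectin, a calcium- and zinc-binding protein that fills the neutrophil cytosol. In the GENCODE M21 annotation of GRCm38 (mm10), *S100a8* is on chromosome 3 from 90668978 to 90670035 on the plus strand and *S100a9* from 90692632 to 90695721 on the minus strand. Each has 3 exons, and the 22596 bases between them hold no annotated gene. *S100a8* was at 2347 and 12 TPM in the negative and positive cells of the GFP line and 687.1 and 0.754 TPM in those of the tdTomato line. *S100a9* was at 3215 and 33.8 TPM in the negative and positive cells of the GFP line and 996.6 and 2.59 TPM in those of the tdTomato line. Both were high in the reporter-negative libraries and low in the reporter-positive ones. The level of *S100a8* was 195-fold lower in GFP-positive than in GFP-negative cells and that of *S100a9* 95.2-fold lower. In the tdTomato line *S100a9* was 384-fold lower in tdTomato-positive cells, and *S100a8*, with a level near 0 there, differed by -8.62 on the log2(TPM + 1) scale. These contrasts chose the genes and are given as a description. *S100a9* ranked 12 among all genes of GFP-negative cells and 88 among those of tdTomato-negative cells, and *S100a8* ranked 21 and 154. The ratio of *S100a9* to *S100a8* TPM was nearly the same in the reporter-negative libraries, 1.37 (GFP-negative) and 1.45 (tdTomato-negative), and was 2.81 in GFP-positive and 3.44 in tdTomato-positive cells, where both genes were low.

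Most other S100 genes were not lower in both lines to this extent. *S100a5*, which is known as a gene of mature OSNs, was at 6636 and 592.8 TPM in the negative and positive cells of the GFP line and 5667 and 5146 TPM in those of the tdTomato line. *S100a11* was higher in reporter-positive cells, at 1470 TPM against 376.3 TPM in the GFP line and 1535 TPM against 386.4 TPM in the tdTomato line. The leukocyte gene *S100a4* was also lower in both lines, with 148.5 and 113.9 TPM in GFP-negative and tdTomato-negative cells and 6.47 and 1.07 TPM in GFP-positive and tdTomato-positive cells. Of the 15 genes of the family above 0 TPM in the GFP line, 5 were at least 4-fold lower and 3 at least 4-fold higher in GFP-positive cells, and of the 14 in the tdTomato line, 4 were lower and 1 was higher. *S100a8* and *S100a9* are among the lower genes in both lines, and since they were named for these contrasts nothing is read from these counts. Of all 17963 genes above 0 TPM in the GFP line, 15.0% were at least 4-fold lower and 6.63% at least 4-fold higher, and in the tdTomato line these shares were 10.7% and 7.72%. Such calls use differences of log2(TPM + 1), and count as 4-fold at 2 or more, so that differences of weakly expressed genes are understated.

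*Ngp* encodes neutrophilic granule protein and *Camp* the cathelicidin antimicrobial peptide, both proteins of specific granules. They lie on chromosome 9, *Camp* from 109847379 to 109849617 on the minus strand and *Ngp* from 110419747 to 110423012 on the plus strand, with 4 exons each and with 570129 bases and 8 protein-coding genes between them. *Ngp* was at 2552 and 11 TPM in the negative and positive cells of the GFP line and 123.6 and 0.0509 TPM in those of the tdTomato line. *Camp* was at 846.4 and 6.23 TPM in the negative and positive cells of the GFP line and 49.1 and 0.296 TPM in those of the tdTomato line. GFP-negative cells were far above the other libraries for both genes, and tdTomato-negative cells came second. *Ngp* was 231-fold and *Camp* 136-fold lower in GFP-positive than in GFP-negative cells. The tdTomato-positive levels of both genes are near 0, so only differences of log2(TPM + 1) are given for that line, which were -6.89 for *Ngp* and -5.27 for *Camp*. They depend on the pseudocount, and that of *Camp* was -6.96 with a pseudocount of 0.1 and -2.52 with 10.

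*Mpo* encodes myeloperoxidase and *Elane* neutrophil elastase, the defining proteins of azurophil granules. *Mpo* (chromosome 11, from 87793581 to 87804413) was at 40.7 TPM in GFP-negative cells, listed at 0 in GFP-positive cells, and at 2.04 and 0.0232 TPM in tdTomato-negative and tdTomato-positive cells. *Elane* (chromosome 10, from 79886247 to 79888215) was at 33.7 TPM in GFP-negative cells and listed at 0 in the other 3 libraries. Both were thus above 10 TPM in GFP-negative cells alone. *Prtn3*, the gene of the related azurophil protease proteinase 3, ends 3072 bases before *Elane* starts, and was at 50.4 and 1.52 TPM in the negative and positive cells of the GFP line and 3.11 and 3.23 TPM in those of the tdTomato line.

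*Mmp8* and *Mmp9* encode neutrophil collagenase and gelatinase B, which degrade extracellular matrix when granules are released. *Mmp8* (chromosome 9, from 7558456 to 7568485) was at 69 TPM in GFP-negative, 0.0159 TPM in GFP-positive, and 12.6 TPM in tdTomato-negative cells, and listed at 0 in tdTomato-positive cells. *Mmp9* (chromosome 2, from 164940780 to 164955850) was at 60.3 and 0.392 TPM in the negative and positive cells of the GFP line and 62 and 0.968 TPM in those of the tdTomato line. *Mmp9* therefore had close to the same level in both reporter-negative libraries, which *Mmp8* did not. Of the 18 matrix metalloproteinase genes searched, 15 were above 0 TPM in the GFP line, of which 6 were at least 4-fold lower in GFP-positive cells, and 15 in the tdTomato line, of which 4 were at least 4-fold lower, compared with 15.0% and 10.7% of all genes. *Mmp8* and *Mmp9* are counted in both. *Mmp25*, a membrane-bound protease of neutrophils, was at 9.19 and 12.9 TPM in GFP-negative and tdTomato-negative cells and listed at 0 in both reporter-positive libraries, while *Mmp15* stayed between 51.5 and 140.3 TPM in all 4. *Retnlg*, a resistin-like secreted protein gene of neutrophils (chromosome 16, from 48872621 to 48874496), was at 237.4 TPM in GFP-negative, 3.01 TPM in GFP-positive, and 55.1 TPM in tdTomato-negative cells and listed at 0 in tdTomato-positive cells. Its paralogs *Retn*, *Retnla*, and *Retnlb* did not exceed 1.58 TPM in any library.

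*Cxcr2* encodes the receptor for CXCL1, CXCL2, and related chemokines, which guides neutrophils to inflamed tissue. It lies on chromosome 1 from 74153989 to 74161246. *Cxcr2* was at 26.4 TPM in GFP-negative, 0.447 TPM in GFP-positive, and 70.3 TPM in tdTomato-negative cells, and listed at 0 in tdTomato-positive cells. It was the 1 member with a clearly higher level in tdTomato-negative than in GFP-negative cells. Between sorted populations, all 10 receptor genes of the chemotaxis list, *Cxcr2* included, were above 0 TPM in the GFP line and were lower in GFP-positive cells, 9 of them at least 4-fold, compared with 15.0% of all genes. In the tdTomato line 9 were above 0 TPM and all 9 were lower, 8 of them at least 4-fold, where 10.7% of all 16752 genes were at least 4-fold lower. *Csf3r*, the receptor for granulocyte colony-stimulating factor, was at 61.6 and 1.36 TPM in the negative and positive cells of the GFP line and 186.2 and 1.47 TPM in those of the tdTomato line. *Cxcr4*, a receptor that many cell types express, was at least 4-fold lower in the GFP line but not in the tdTomato line, at 150.1 against 28.8 TPM in the GFP line and 160 against 61.5 TPM in the tdTomato line.

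The ligands were more mixed. *Cxcl2*, a CXCR2 ligand that myeloid cells release, was at 148.2 and 10.9 TPM in the negative and positive cells of the GFP line and 713.3 and 0.491 TPM in those of the tdTomato line. *Il1b*, an inflammatory cytokine that raises chemokine release, was at 245.7 and 8.06 TPM in the negative and positive cells of the GFP line and 1294 and 18.4 TPM in those of the tdTomato line. Both were lower in reporter-positive cells of either line, and both were highest in tdTomato-negative cells, unlike most members. *Cxcl5*, a CXCR2 ligand that epithelial cells make, had the opposite direction, with 77.1 against 2.93 TPM in the positive and negative cells of the GFP line and 38 against 12.1 TPM in those of the tdTomato line. Of the ligand genes above 0 TPM, 3 of 10 in the GFP line and 5 of 9 in the tdTomato line were at least 4-fold lower in reporter-positive cells, compared with 15.0% and 10.7% of all genes.

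**Figure D1:**
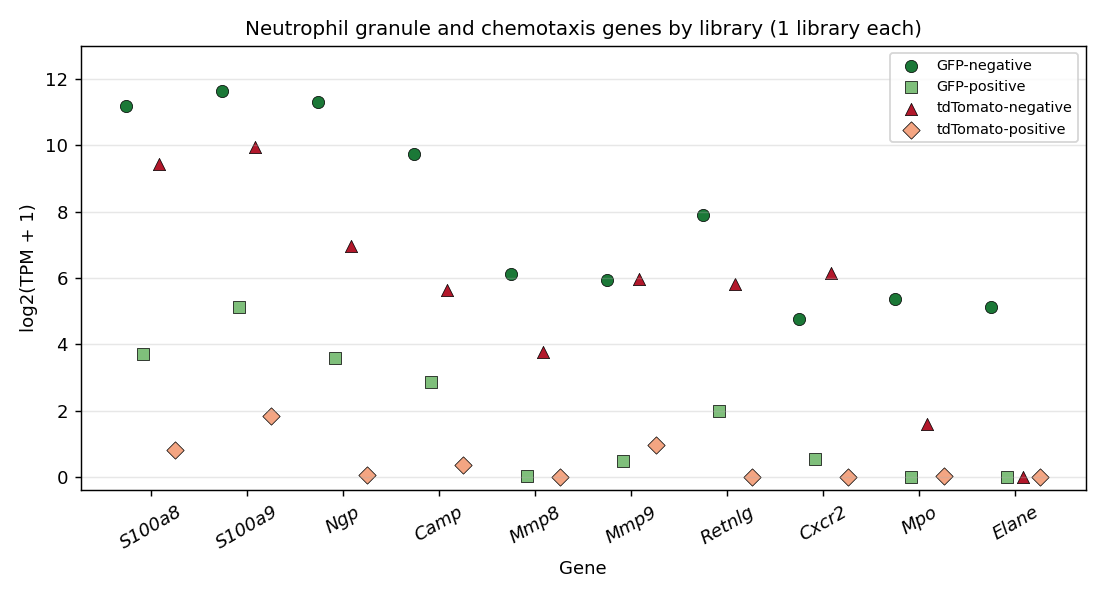
Level of each member in each of the 4 libraries, on the y axis as log2(TPM + 1), with 1 point per gene and library and genes along the x axis. The reporter-negative points lie above the reporter-positive points of the same line for every gene except *Elane* in the tdTomato line, which was listed at 0 in both, and *Cxcr2* and *Mmp9* are the members whose tdTomato-negative point is not below the GFP-negative one.

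Together the 10 genes summed to 9427 TPM, or 0.943% of all TPM, in GFP-negative cells and to 2059 TPM, or 0.206%, in tdTomato-negative cells. In reporter-positive cells they summed to 66.9 TPM (GFP-positive) and 4.69 TPM (tdTomato-positive), so that the summed level was 141-fold lower in the GFP line (log2 ratio -7.14) and 439-fold lower in the tdTomato line (log2 ratio -8.78). All 10 members were at least 4-fold lower in GFP-positive cells on the log2(TPM + 1) scale, and the corresponding background of 15.0% of all genes is given above. In the tdTomato line 9 members were above 0 TPM, and 8 of these were at least 4-fold lower, against a background of 10.7%. The exception was *Mpo*, which was low in both libraries and differed by -1.57 on the log2 scale. Because *S100a8*, *S100a9*, and *Ngp* were named for these contrasts, nothing is read from the counts. By the mean difference of both lines, these 3 genes were the most lowered of 13010 genes, *Camp* and *Retnlg* ranked 22 and 31, and *Elane* ranked 1020. Without those 3 genes, the log2 ratio of the sums was -7.61 in the tdTomato line. The median difference of the members was -6 on the log2 scale in the GFP line and -5.81 in the tdTomato line, and both medians include genes listed at 0, for which the value depends on the pseudocount.

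Markers of other leukocytes were lower in the same libraries. The 10 pan-leukocyte genes, such as *Ptprc*, which encodes CD45, and *Tyrobp*, were lower in both lines, 9 of 10 at least 4-fold in the GFP line and 10 of 10 in the tdTomato line, compared with 15.0% and 10.7% of all genes. Their summed level was 2976 and 144.2 TPM in the negative and positive cells of the GFP line and 2652 and 134.1 TPM in those of the tdTomato line, a 20.6-fold and a 19.8-fold difference. *Lcp1* alone held 65.3 of the 144.2 TPM in GFP-positive cells and 56 of the 134.1 TPM in tdTomato-positive cells. It was 3.61-fold and 4.22-fold lower there, the smallest differences of the list. The 10 lymphocyte genes were lower by 258-fold in the GFP line and 56.1-fold in the tdTomato line in their sums, and the 12 monocyte and macrophage genes by 15.3-fold and 4-fold. In comparison, the 10 mature OSN genes were lower by 9.09-fold and 2.24-fold. The part of other leukocytes in the members' levels was not tested. Per summed pan-leukocyte TPM, the members stood at 3.17 in GFP-negative, 0.464 in GFP-positive, 0.776 in tdTomato-negative, and 0.0349 in tdTomato-positive cells, so the ratio was 6.83-fold and 22.2-fold lower in reporter-positive cells of the GFP and tdTomato lines. Set against *Ptprc* alone in place of the list, these differences were smaller, with log2 ratios of -1.31 and -1.68 in place of -2.77 and -4.47. With the median of the pan-leukocyte list in place of its sum, they were -1.98 and -4.07. The members' sum includes *S100a8*, *S100a9*, and *Ngp*, which were named for these contrasts. Without these 3 genes, the log2 ratios per summed pan-leukocyte TPM were -2.66 and -3.30.

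**Figure D2:**
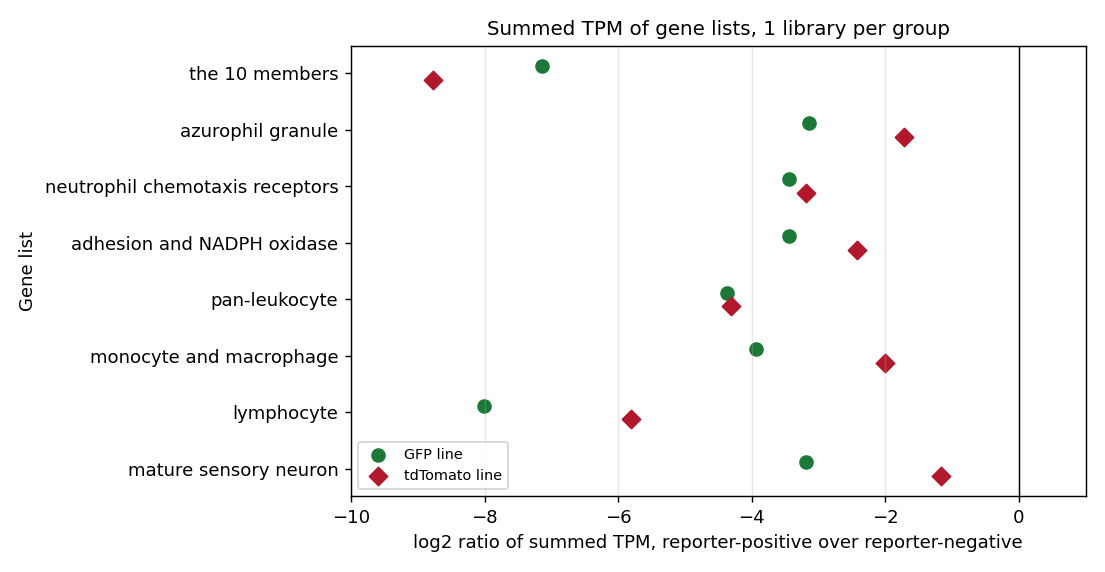
Log2 ratio of the summed TPM of 8 gene lists, reporter-positive over reporter-negative, on the x axis, with 1 point per list and line and the lists along the y axis. The members lie at -7.14 (GFP line) and -8.78 (tdTomato line), the pan-leukocyte genes at -4.37 and -4.31, and the mature OSN genes at -3.18 and -1.17.

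To see whether the pattern reaches further neutrophil genes, 52 other genes of the azurophil granule, specific and gelatinase granule, chemotaxis receptor, adhesion and NADPH oxidase, and mature neutrophil lists were examined. Of these, 36 of 52 in the GFP line and 34 of the 49 above 0 TPM in the tdTomato line were at least 4-fold lower in reporter-positive cells, 32 of them in both lines, compared with 6.17% of all 16298 genes above 0 TPM in both lines. Their median log2 differences were -3.10 and -3.65. The azurophil granule list did not follow in both lines. Of its 7 genes, with *Mpo* and *Elane* counted, 4 were at least 4-fold lower in the GFP line, with a median log2 difference of -3.11. That median is the value of *Ctsg*, with 7.63 TPM in GFP-negative and 0 in GFP-positive cells, and depends on the pseudocount. In the tdTomato line 4 of the 7 genes were above 0 TPM, of which 0 were at least 4-fold lower, with a median of -0.76. The shares of all genes were 15.0% and 10.7%. *Ifitm6*, an interferon-induced membrane protein gene, was at 257.3 TPM in GFP-negative and 27 TPM in tdTomato-negative cells, at 0.0719 TPM in GFP-positive cells, and listed at 0 in tdTomato-positive cells. The 8 granulocyte transcription factor genes were mixed, with 4 at least 4-fold lower in each line and 1 (*Runx1*) at least 4-fold higher in the tdTomato line. Of all genes, 15.0% (GFP line) and 10.7% (tdTomato line) were at least 4-fold lower, and 7.72% were at least 4-fold higher in the tdTomato line. *Cebpe* and *Gfi1*, which are required for granulocyte maturation, were at 17.8 and 8.81 TPM in GFP-negative cells and both listed at 0 in GFP-positive cells. *Cebpd*, a C/EBP factor that many cell types express, was higher in both lines by 1.65 and 1.31 on the log2 scale, and *Runx1*, a factor of blood cell development, by 1.11 and 2.23. *Ly6g* was not analysed here.

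Some genes with a known role in neutrophils were higher in reporter-positive cells. *Cd177*, *Pglyrp1*, *Adam8*, *Hdc*, and *Anxa1* were higher in both lines, and *Cd177* and *Adam8* were so by at least 4-fold in both. *Cd177* was at 77.8 and 593.7 TPM in the negative and positive cells of the GFP line and 23.9 and 658.5 TPM in those of the tdTomato line. *Ltf* and *Lcn2*, which encode the specific granule proteins lactoferrin and lipocalin 2 and are also secreted by gland and airway epithelial cells, did not follow *Ngp* and *Camp*. *Ltf* was at 665.3 and 1691 TPM in the negative and positive cells of the GFP line and 496 and 286.2 TPM in those of the tdTomato line. *Lcn2* was at 720.4 and 1697 TPM in the negative and positive cells of the GFP line and 290.5 and 265.2 TPM in those of the tdTomato line. The 13 specific and gelatinase granule genes therefore went both ways. In the GFP line, 7 were at least 4-fold lower and 3 at least 4-fold higher, compared with 15.0% and 6.63% of all genes. In the tdTomato line, 6 were at least 4-fold lower and 2 at least 4-fold higher, compared with 10.7% and 7.72%. The lower genes include 4 members in each line (*Ngp*, *Camp*, *Mmp8*, and *Mmp9*), of which *Ngp* was named for these contrasts.

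The reporter-negative libraries differed from each other in how much the members contributed. The pan-leukocyte genes had nearly the same sum in both, 2976 TPM in GFP-negative and 2652 TPM in tdTomato-negative cells, with a median log2 difference of -0.04, while the members' sum was 4.58-fold higher in GFP-negative cells (log2 ratio of tdTomato-negative over GFP-negative -2.20, or -3.37 without *S100a8* and *S100a9*). Among the members, *Ngp*, *Camp*, *Mpo*, and *Elane* differed most. *Ngp* was 20.7-fold, *Mpo* 19.9-fold, and *Camp* 17.2-fold higher in GFP-negative than in tdTomato-negative cells, and *Elane* was listed at 0 in the latter. *Mmp8*, *Retnlg*, *S100a8*, and *S100a9* were 5.46-fold, 4.31-fold, 3.42-fold, and 3.23-fold higher. *Mmp9* was within 1.03-fold, and *Cxcr2* was 2.66-fold higher in tdTomato-negative cells. The ratio of *Ngp* to *Cxcr2* TPM was 96.6 in GFP-negative and 1.76 in tdTomato-negative cells. Members that were at least 4-fold lower in tdTomato-negative cells numbered 6 of 10, compared with 4.44% of all 17130 genes.

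Of the 52 other neutrophil genes, 7 were at least 4-fold lower and 6 at least 4-fold higher in tdTomato-negative cells, compared with 4.44% and 3.34% of all genes. Their median log2 difference was -0.32. The 7 lower genes include *Itgb2l* and *Cybb*, of the adhesion and NADPH oxidase list. Of 7 azurophil granule genes, 4 (*Mpo*, *Elane*, *Prtn3*, and *Ctsg*) were at least 4-fold lower in tdTomato-negative cells, compared with 4.44% of all genes. All 7 were at least 2-fold lower, compared with 11.5%, with a median log2 difference of -3.11. The tdTomato-negative library lists *Elane*, *Ctsg*, *Prss57*, and *Ms4a3* at 0. *Prss57* and *Ms4a3* were also low in GFP-negative cells, at 1.42 and 2.98 TPM. The median of -3.11 is the value of *Ctsg*, which had 7.63 TPM in GFP-negative cells. This median depends on the pseudocount, and was -4.25 with 0.1 and -1.01 with 10. The 13 specific and gelatinase granule genes had a median of -0.53, and the 4 that were at least 4-fold lower were *Ngp*, *Camp*, *Mmp8*, and *Chil3*. *Chil3*, a chitinase-like protein of neutrophil precursors and macrophages, was 22.4-fold higher in GFP-negative cells, at 512 against 22.9 TPM. Genes of mature neutrophils were split. On that list, 6 of 17 were at least 4-fold higher in tdTomato-negative cells, compared with 3.34% of all genes, and 2 (*Ifitm6* and *Wfdc21*) were at least 4-fold lower, compared with 4.44%. At 2-fold, 8 were higher and 5 lower, compared with 10.6% and 11.5% of all genes. *Il1r2*, the decoy receptor for interleukin 1, was at 207.1 TPM in tdTomato-negative and 24.7 TPM in GFP-negative cells. *Clec4d*, a C-type lectin receptor gene of myeloid cells, was at 88.1 against 7.47 TPM, and *Csf3r* was 3.02-fold higher in tdTomato-negative cells. *Stfa2* and *Stfa2l1*, cystatin genes with close copies in the mouse genome whose values depend on how shared reads were assigned, were at 73.1 and 100.5 TPM in tdTomato-negative and 3.68 and 3.85 TPM in GFP-negative cells. *Il1b* was 5.27-fold and *Cxcl2* 4.81-fold higher in tdTomato-negative cells.

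Genes of other myeloid cells also differed between these libraries. The monocyte and macrophage genes summed to 1323 TPM in GFP-negative and 344.4 TPM in tdTomato-negative cells, and 6 of 12 were at least 4-fold lower in tdTomato-negative cells, compared with 4.44% of all genes. Eosinophil genes were split. *Prg2*, which encodes eosinophil major basic protein, was at 507.3 TPM in GFP-negative and 13.1 TPM in tdTomato-negative cells, and *Epx*, the eosinophil peroxidase gene, at 39.4 and 2.82 TPM. *Siglecf*, a lectin gene of eosinophils, was at 13.5 and 47.2 TPM, and *Il5ra*, an interleukin 5 receptor gene, at 0.588 and 1.35 TPM. The part of these cells in the members' levels was not tested. The lines differ in enhancer, reporter, founder, listed age, and sort, which cannot be told apart with 1 library each.

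**Figure D3:**
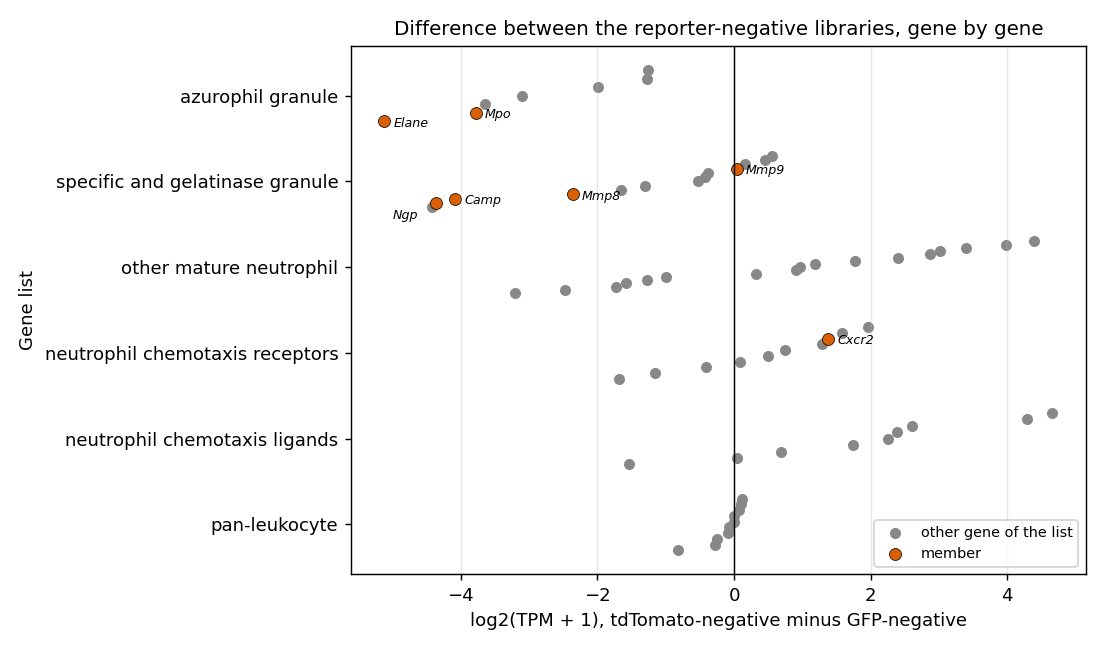
Difference of log2(TPM + 1), tdTomato-negative minus GFP-negative, on the x axis for each gene of 6 lists along the y axis, with members in orange and other genes of a list in gray, and points spread vertically within a list only to keep them apart. The azurophil granule genes all lie below 0, the pan-leukocyte genes lie between -0.82 and 0.12, and 6 mature neutrophil genes lie above 2.

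The make-up of the members' summed TPM also differed between the libraries. *S100a8* and *S100a9* made up 59% of it in GFP-negative, 68.4% in GFP-positive, 81.8% in tdTomato-negative, and 71.4% in tdTomato-positive cells. *Ngp* and *Camp* made up 36% in GFP-negative and 25.8% in GFP-positive cells, but 8.39% in tdTomato-negative and 7.4% in tdTomato-positive cells. The shares of reporter-positive cells rest on sums of 66.9 and 4.69 TPM. Within the *Ngp* and *Camp* share, the ratio of *Ngp* to *Camp* TPM was 3.02 in GFP-negative, 1.77 in GFP-positive, and 2.51 in tdTomato-negative cells, and is not given for tdTomato-positive cells, where both levels are near 0.

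**Figure D4:**
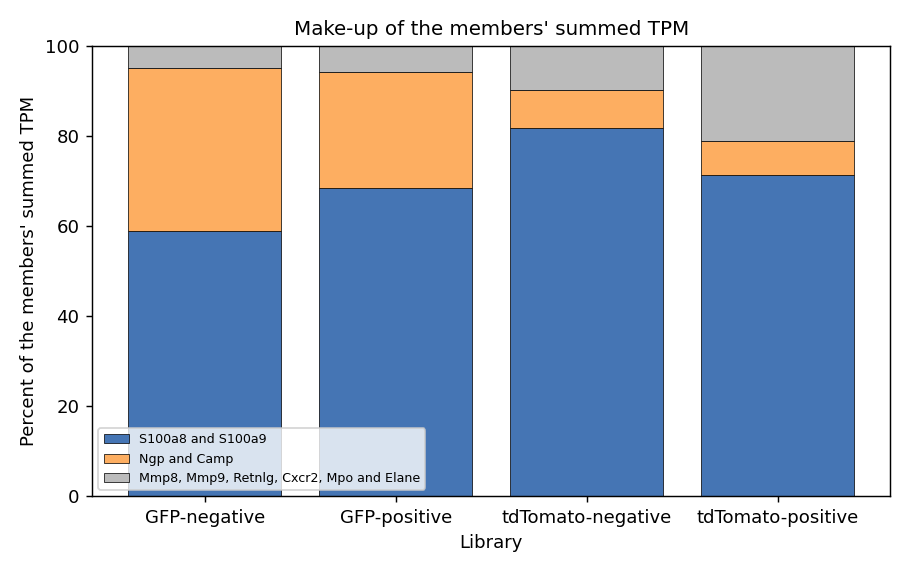
Percent of the members' summed TPM (y axis) held by *S100a8* and *S100a9* (blue), *Ngp* and *Camp* (orange), and the other 6 members (gray) in each library (x axis). The orange share is 36% and 25.8% in the libraries of the GFP line and 8.39% and 7.4% in those of the tdTomato line.

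To name the genes with the most similar pattern, the log2(TPM + 1) values of each gene were centred on their mean over the 4 libraries and compared with the mean centred profile of *S100a8*, *S100a9*, and *Ngp* by Euclidean distance. Among the 13000 other genes that reached 10 TPM in 1 or more libraries, the median distance was 7.78. *Lilrb4a*, an inhibitory receptor gene of myeloid cells, was closest at 2.35, with 244.8 and 7.83 TPM in the negative and positive cells of the GFP line and 316.4 and 0.0394 TPM in those of the tdTomato line. *Hmha1* (2.55), *Ifitm6* (2.55), *Lsp1* (2.60), *Il2rg* (2.63), *Cd79a* (2.64), *Hcls1* (2.64), *Gimap6* (2.71), and *Sept1* (2.77) were also among the 10 closest. *Il2rg* encodes the common cytokine receptor gamma chain of lymphocytes and *Cd79a* a B cell receptor component, so the closest genes are not limited to neutrophil genes. The other members lay at distances from 1.89 (*Camp*) to 5.78 (*Elane*).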

How the data were processed

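The 4 libraries are RNA-seq of FACS-sorted MOE cells, 1 per group. The authors deposited 1 table of TPM values, with gene symbols as row names. The labels name Trimmomatic 0.36, Salmon 1.4.0, and mm10, while the study's methods name Hisat2, Cufflinks, and featureCounts; the annotation and any gene filter are not given in the sources used here. Labels and methods also name different RNA and library kits. No counts were used, so depth and counting error are unknown.

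Differences were calculated as log2(TPM + 1) and summed levels as ratios. A gene was called at a 4-fold difference, over all genes above 0 TPM in either library compared. No tests were performed. The members and the 17 gene lists were chosen with earlier results of these data known. Named genes are the members, genes of the lists, and the 10 nearest profiles, of which 1 is not reported here. The calculations were tested on simulated data. Alternatives were other pseudocounts, 2 scalings, minimum TPM values, folds, and member sets. Gene positions are from GENCODE M21 and promoters from RefSeq (GRCm38.p6). Motifs were chosen after the values were seen. Python 3.11.15, NumPy 2.4.6, pandas 2.3.3, and matplotlib 3.10.9 were used.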

Additional observations from a re-analysis of the deposited data

Results flagged for a closer look

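Of the members and the neutrophil lists, 2 genes differed by at least 1.5-fold in opposite directions in the lines, which was not tested. *Ltf* was higher in GFP-positive cells by 1.34 on the log2(TPM + 1) scale, and its difference in the tdTomato line was -0.79. *Olfm4*, an olfactomedin family gene of a neutrophil subset that epithelial cells also express, had a difference of -2.71 in the GFP line, from 22.6 to 2.61 TPM, and of 1.30 in the tdTomato line, from 33.6 to 84.3 TPM. No member had opposite directions in the lines.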

How the results depend on the processing

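A log2 value counts as moved past 0.58 and a number of genes past 1.5 times. No paired analysis was possible because there is a single library in every group. Alternatives for other neutrophil genes, the lines against each other, the reporter-negative libraries, all genes, and most of those leaving out members were chosen after seeing the data. All 76 alternative values of single members in the lines stayed negative, 36 of them moving by more than 1.5-fold. Of 40 alternative values between the reporter-negative libraries, 3 moved and none changed direction. Unknown depth limits the values near 0 most.

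A pseudocount of 0.1 gave members' medians of -7.33 (GFP line) and -8.53 (tdTomato line) and an azurophil median between reporter-negative libraries of -4.25. With 10 these were -3.61, -2.71, and -1.01, and the other neutrophil genes at least 4-fold lower fell to 15 and 21, and all such genes from 2699 to 727 and from 1798 to 453, and higher ones from 1191 to 364 and from 1293 to 458. With 0.1, 2282 genes were higher in the GFP line. Median-ratio scaling shifted the median of all genes by 0.74 and 0.13, and gave a log2 ratio of sums of -6.25 and a median of -5.40 in the GFP line, 6 other neutrophil genes at least 4-fold higher, and a difference between the lines of 2.37 in place of 1.64. Under it, 1543 genes were lower and 1833 higher in the GFP line, or 45.7% lower, against 69.4% as deposited and 56.1% when the 24 highest genes were removed before rescaling.

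Without *S100a8* and *S100a9*, the log2 ratio of sums in the tdTomato line was -8.13, that per pan-leukocyte TPM -3.82, the difference between the lines 0.61, and the log2 ratio of tdTomato-negative over GFP-negative cells -3.37 in place of -2.20. Also without *Ngp*, the values in the tdTomato line were -7.61 and -3.30, with a median of -5.14 and 5 members at least 4-fold lower, and the difference between the lines was 0.58. Per *Ptprc* alone, the members' log2 ratios were -1.31 and -1.68, and with the median of the pan-leukocyte list the GFP line had -1.98. For all genes, the lower and higher counts were 7283 and 2291 (GFP line) and 3661 and 2713 (tdTomato line) at 2-fold, and 1112, 602, 1049, and 633 at 8-fold. At 2-fold, 6 other neutrophil genes were higher in each line, and at 8-fold 0 in the GFP line. The cause of each move was not tested.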
